A study of Mus musculus with 9 samples.

Results

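The surface markers that define mouse hematopoietic stem cells (HSCs) were followed as 10 genes out of the 56748 genes counted: Slamf1, Cd48, Kit, Ly6a, Cd34, Procr, Cd9, Cd38, Esam and Fgd5. They were chosen because the field sorts or reports HSCs by their proteins, or, for Fgd5, by a reporter placed in the gene. Their values were not the rule of choice, but earlier results of these data were known when they were chosen. Bulk RNA-seq gave 3 libraries each of HSCs from young mice (yHSCs, 6 to 10 weeks) and of the Selp_low and Selp_high fractions of HSCs from pre-aged mice (paHSCs, 14 to 16 months). All mice were C57BL/6 females with no stated transgene or treatment. By the gate the study shows for these fractions, cells were sorted from bone marrow as Lin- Sca1+ c-Kit+ (LSK), CD48- and CD150+, and those of pre-aged mice were then parted by surface P-selectin, the product of Selp. The labels number the libraries 1 to 3 in each group, and the paper calls them biological repeats. Its authors also describe them as independent samples, without stating whether each RNA-seq library came from a separate mouse or from a pool. The p-values below measure the spread between these libraries, which may therefore differ from the spread between single mice.

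HSCs are rare, mostly resting cells of the marrow that renew themselves and give rise to every blood lineage. No single protein marks them, so a sort combines several: KIT, the receptor of stem cell factor, and Sca-1, the product of Ly6a, enclose stem and early progenitor cells, while CD150 (Slamf1) without CD48 narrows these to HSCs. CD34 is absent from the adult long-term repopulating cells of the mouse and present on their progeny, and EPCR (Procr), CD9, CD38, ESAM and Fgd5 reporters enrich for HSCs further.

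That gate uses the proteins of Slamf1, Cd48, Kit and Ly6a, so where it was applied the RNA of these genes was measured in cells already chosen by protein. The labels do not give the gate of the sequenced libraries. The levels below are CPM, a gene's counts as a share of the library size scaled by edgeR's TMM factors, which compare a gene between libraries, and FPKM, the same divided by the length of the gene, which compare genes with each other. Depth ranged from 24866975 to 35375310 counts per library, and every marker was counted at least 77 times in every library. The 10 most counted genes took 44.8% of the counts of Selp_low replicate 2, 20.9% of Selp_low replicate 3 and 12.5% of yHSC replicate 1, against 3.90% to 8.94% of the other 6. Selp ran from 21.1 to 31.8 CPM in yHSCs, from 28.5 to 108 CPM in Selp_low and from 259 to 662 CPM in Selp_high paHSCs, so the sorted fractions kept their order without overlap. The log2 fold change of Selp in Selp_high over Selp_low paHSCs was 2.34 (SE 0.60, edgeR adjusted p = 0.338, DESeq2 adjusted p = 0.0211).

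Marker genes of other cells stood apart in some libraries. The summed level of 10 B-lineage markers was 5686, 103217 and 88.0 CPM in Selp_low replicates 1 to 3, against 181 to 325 CPM in yHSCs and 392 to 3739 CPM in Selp_high paHSCs. Jchain, 1 of the 10, made up 245, 95597 and 26.5 CPM of the sums in Selp_low replicates 1 to 3 and reached 3213 CPM in Selp_high paHSCs. The summed level of 12 neutrophil markers was 204108 CPM in Selp_low replicate 3 and 67398 CPM in yHSC replicate 1, against 463 to 41944 CPM in the other 7 libraries. The TMM factor was 0.56 in Selp_low replicate 2 and 0.81 in Selp_low replicate 3, against 1.07 to 1.18 in the others. Of raw counts, B-lineage markers made up 5.78% in Selp_low replicate 2 and neutrophil markers 16.6% in Selp_low replicate 3. In bulk RNA a change in the number of such cells and a change in RNA per cell cannot be told apart. Where these sums move with a marker, the values are given beside it, and their part in the result was not tested.

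Each pair of groups was fitted by edgeR with all its libraries after a filter on low counts. Slamf1 and Cd34 were the markers called, both in Selp_high paHSCs over yHSCs alone, and their promoters are therefore shown. The stretch runs from 190 to 11 bases before the start of transcription, from RefSeq on build GRCm38.p6, where both genes lie on the plus strand of chromosome 1, Slamf1 at chr1:171766942-171767121 and Cd34 at chr1:194938631-194938810. Capitals mark AGGAAG, a core bound by ETS factors, on either strand.
Slamf1: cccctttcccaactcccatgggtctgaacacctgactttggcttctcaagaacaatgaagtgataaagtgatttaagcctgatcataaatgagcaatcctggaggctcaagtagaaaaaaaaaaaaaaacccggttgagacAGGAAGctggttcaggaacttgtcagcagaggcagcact
Cd34: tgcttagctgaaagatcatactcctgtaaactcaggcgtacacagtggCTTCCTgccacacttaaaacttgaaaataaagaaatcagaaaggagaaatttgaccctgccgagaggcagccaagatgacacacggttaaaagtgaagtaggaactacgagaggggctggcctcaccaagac
Each stretch held 1 match to AGGAAG, on opposite strands, and neither held AGATAA, a core of GATA factors, or TGTGGT, a core of RUNX factors. Of 27025 genes with such a window, 22.2% held AGGAAG, 7.23% AGATAA and 10.4% TGTGGT on either strand. Among the 8 markers with a window (all but Esam and Ly6a), AGGAAG was present in 4, AGATAA in Cd38 and TGTGGT in Cd48. A match of letters describes the window and does not show binding.

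All 10 markers were expressed in all groups, at levels that differed widely per length. In yHSCs the order of mean FPKM was Ly6a (137 ± 15.2, SD, n = 3), Cd34 (102 ± 27.4), Cd9 (74.3 ± 41.5), Kit (51.1 ± 25.4), Procr (43.0 ± 10.1), Esam (33.6 ± 6.78), Cd48 (21.0 ± 7.33), Fgd5 (3.67 ± 2.43), Cd38 (3.53 ± 0.869) and Slamf1 (2.498 ± 0.634). Neighbours in this order overlapped in their libraries except Cd48 and Fgd5. Slamf1, whose protein is part of that gate, was thus the lowest of the 10 in yHSCs, above 59.99% of protein-coding genes. In Selp_high paHSCs Cd9 came first (338 ± 177 FPKM), followed by Ly6a (206 ± 95.2), Esam (106 ± 28.8) and Procr (76.1 ± 39.5). Then came Kit (38.5 ± 11.7 FPKM), Cd38 (24.2 ± 10.9), Slamf1 (23.7 ± 10.3), Cd48 (18.6 ± 12.3), Cd34 (10.3 ± 1.67) and Fgd5 (4.42 ± 1.68), and neighbours overlapped except Ly6a with Esam and Cd34 with Fgd5. In Selp_low paHSCs Ly6a (430 ± 337 FPKM), Cd9 (185 ± 145) and Cd48 (139 ± 117) came first, ahead of Esam (27.4 ± 10.5), Cd38 (26.2 ± 18.6), Procr (21.5 ± 19.2), Kit (14.7 ± 4.19), Cd34 (10.7 ± 10.8), Slamf1 (9.01 ± 2.27) and Fgd5 (1.12 ± 0.300). Here Fgd5 was the one gene that did not overlap with its neighbour.

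**Figure D1:**
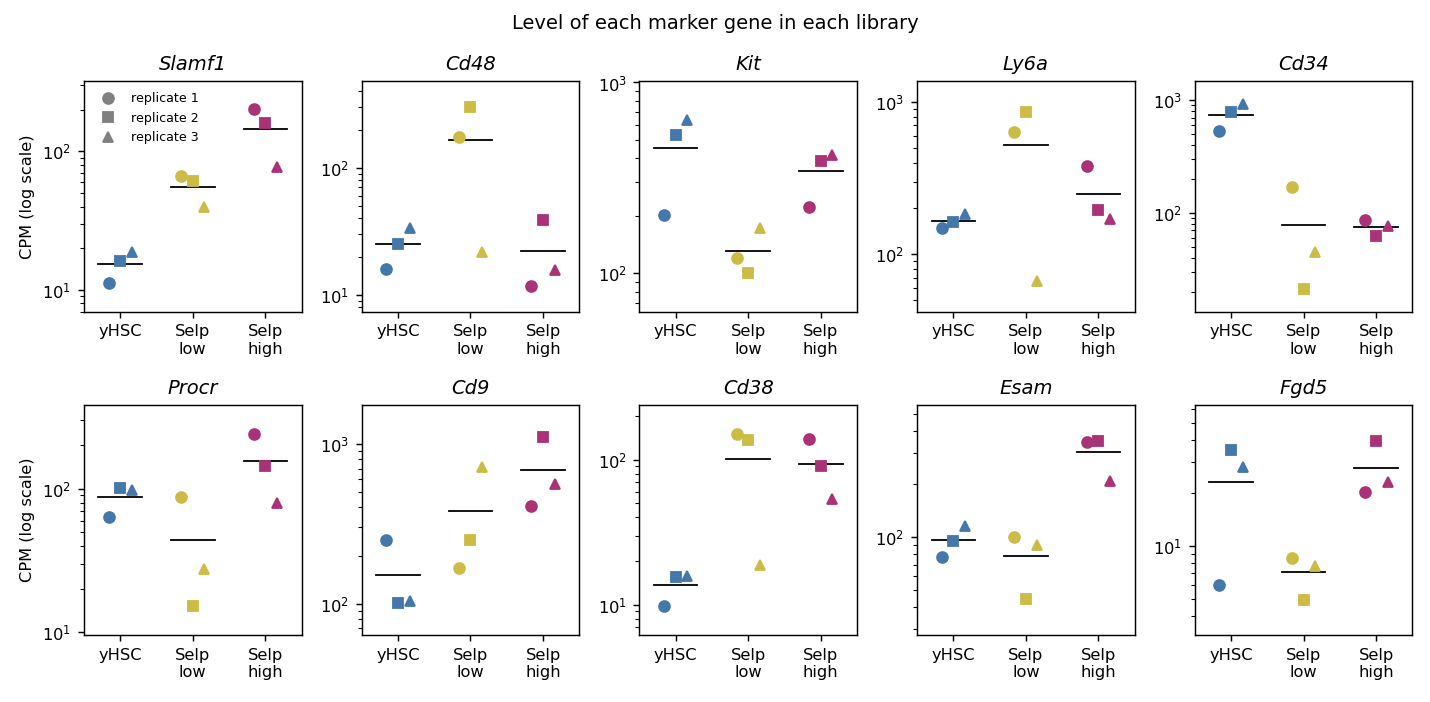
CPM on a log axis of each of the 10 marker genes in the 9 libraries, by group (blue yHSC, yellow Selp low, purple Selp high), with the marker shape giving the replicate number and a line at the group mean. Cd34 is high in the 3 yHSC libraries and low in the other 6, Slamf1 steps up from yHSC to Selp low to Selp high, and Cd48, Ly6a and Cd38 are low in Selp low replicate 3 and high in the other 2 Selp low libraries.

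Slamf1 (ENSMUSG00000015316, chromosome 1 from 171594695 to 171628752, plus strand, build mm39) encodes CD150, a SLAM family receptor that binds other CD150 molecules. Its level was 11.2, 16.1 and 18.9 CPM in yHSC replicates 1 to 3, 65.9, 60.9 and 39.6 CPM in Selp_low and 201, 159 and 76.9 CPM in Selp_high paHSCs. The 3 groups did not overlap in either step of this order, and every library of the pre-aged mice lay above every yHSC library. In Selp_high paHSCs Slamf1 rose 9.51-fold over yHSCs (log2 fold change 3.25, SE 0.42, edgeR adjusted p = 0.0498, DESeq2 adjusted p = 4.93e-11). The edgeR call stood at the edge of the threshold and was lost without any 1 of the 6 libraries, with adjusted p of 0.112, 0.206 and 0.297 without yHSC replicates 1, 2 and 3 and of 0.103, 0.167 and 0.0664 without Selp_high replicates 1, 2 and 3, while the log2 fold change stayed between 2.95 and 3.56. For Selp_low paHSCs over yHSCs the value was 1.97 (SE 0.32, edgeR adjusted p = 0.332, DESeq2 adjusted p = 0.00146), and the DESeq2 call was lost without yHSC replicate 2. Between the paHSC fractions it was 1.34 (SE 0.40, edgeR adjusted p = 0.338, DESeq2 adjusted p = 0.173), and a block for the replicate number brought the adjusted p to 0.0946 by edgeR and 0.00036 by DESeq2. By limma voom with quality weights the value fell to 0.75 (adjusted p = 0.243).

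Cd48 (chromosome 1 from 171509577 to 171532826, plus strand), a neighbour of Slamf1 in the SLAM gene cluster, encodes a membrane protein that binds CD2 and CD244, and that gate leaves out cells with the protein. Its level was 16.1, 25.4 and 33.5 CPM in yHSCs, 173, 301 and 22.0 CPM in Selp_low replicates 1 to 3 and 11.8, 38.9 and 15.6 CPM in Selp_high paHSCs. Selp_low replicates 1 and 2 thus stood above all other libraries, and Selp_low replicate 3 lay within the range of yHSCs. The log2 fold change was -2.95 in Selp_high over Selp_low paHSCs (SE 0.93, edgeR adjusted p = 0.338, DESeq2 adjusted p = 0.0234) and 2.86 in Selp_low paHSCs over yHSCs (SE 0.87, edgeR adjusted p = 0.338, DESeq2 adjusted p = 0.0288), and the libraries overlapped in both. The DESeq2 call between the fractions was lost without Selp_low replicate 1, Selp_low replicate 2, Selp_high replicate 1 or Selp_high replicate 3. Over yHSCs it was kept in Selp_low paHSCs without Selp_low replicate 3 and lost without any 1 of the other 5 libraries. Without Selp_low replicate 2 the values by edgeR were -2.18 between the fractions and 2.00 over yHSCs, and without Selp_high replicate 2 the former was -3.62. In Selp_high paHSCs over yHSCs the value was -0.16 (SE 0.51, edgeR adjusted p = 0.999), and the sign changed without yHSC replicate 3, Selp_high replicate 1 or Selp_high replicate 3.

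The 2 Selp_low libraries with much Cd48 RNA were also those with the most B-lineage RNA. Ly6a and Cd38 had the same split, at 631, 855 and 67.3 CPM and at 150, 137 and 18.8 CPM in Selp_low replicates 1 to 3, and so did Cd79a, a subunit of the B-cell receptor, at 2479, 4127 and 8.44 CPM. The T-cell genes Cd3g and Trbc2 split likewise, at 83.2, 220 and 0.797 CPM and at 87.4, 176 and 0.109 CPM. The summed level of 9 T and NK markers did not, at 507, 1211 and 617 CPM. The part of B-lineage or T-cell RNA in these values was not tested. All 10 B-lineage markers were counted in every library. Cd48, Ly6a and Cd38 are also expressed by mature lymphocytes. A fit without both of these Selp_low libraries was not run, and the values of Selp_low replicate 3 alone, at 22.0 CPM of Cd48, 67.3 CPM of Ly6a and 18.8 CPM of Cd38, stood within, below and above the range of the yHSC libraries.

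**Figure D2:**
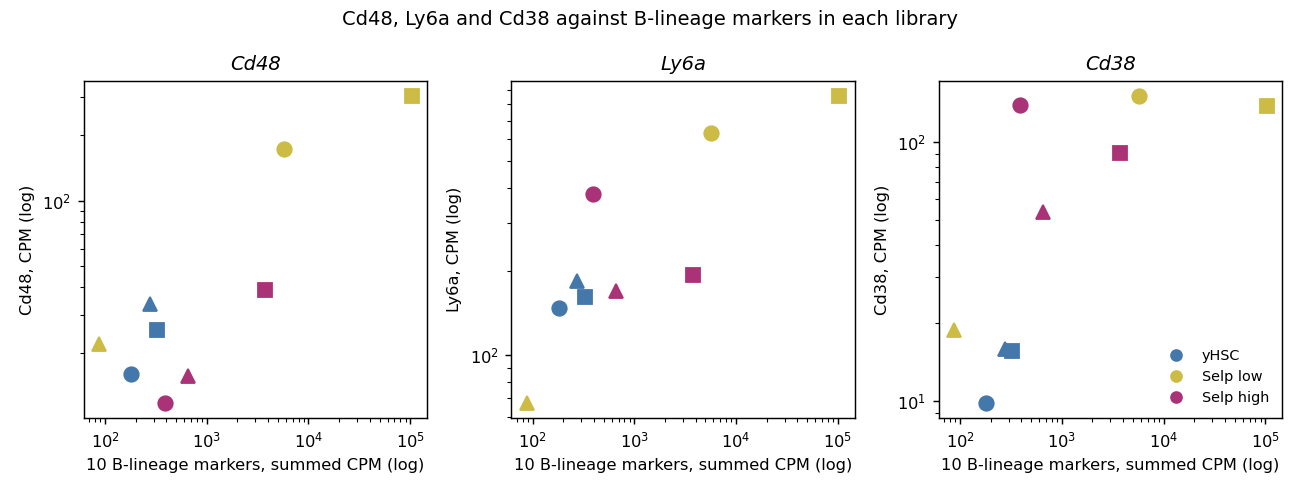
CPM of Cd48, Ly6a and Cd38 (vertical axes, log scale) against the summed CPM of 10 B-lineage markers (horizontal axis, log scale) in the 9 libraries, with colors for groups and shapes for replicate numbers as in the plot of levels. Selp low replicates 1 (circle) and 2 (square) lie at the upper right with 5686 and 103217 CPM of B-lineage markers, and Selp low replicate 3 lies at the lower left with 88.0 CPM. Jchain made up 95597 CPM of the sum in Selp low replicate 2.

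A gate of this kind selects for CD150 and against CD48, so the ratio of Slamf1 to Cd48 RNA, per length, was calculated for each library. Its log2 value was -2.90, -3.03 and -3.20 in yHSCs, -3.77, -4.68 and -1.52 in Selp_low and 1.72, -0.34 and -0.07 in Selp_high paHSCs. Per length, Cd48 RNA thus exceeded Slamf1 RNA in all libraries but Selp_high replicate 1, by the widest margin in Selp_low replicates 1 and 2. By CPM, without length, the log2 ratio was positive in Selp_low replicate 3 (0.85) and Selp_high replicates 1 to 3 (4.09, 2.04 and 2.30). Selp_high paHSCs lay above Selp_low paHSCs by 3.76 and above yHSCs by 3.48 on the log2 scale, without overlap (p = 0.1 in each by a 2-sided exact permutation test, the smallest it allows for 3 against 3). Between Selp_low paHSCs and yHSCs the difference was -0.28 (p = 0.8 by the same exact permutation test), and it turned to 0.40 without Selp_low replicate 2.

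**Figure D3:**
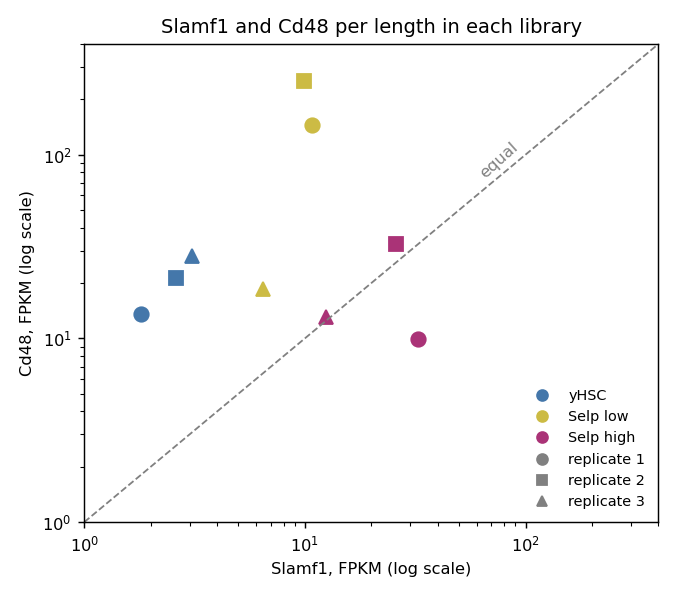
FPKM of Slamf1 (horizontal) and Cd48 (vertical) on log axes in the 9 libraries, with colors for groups, shapes for replicate numbers and a dashed line where both are equal. Selp high replicate 1 lies below the line, Selp high replicates 2 and 3 lie just above it, and the yHSC and Selp low libraries lie farther above it.

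Kit (chromosome 5 from 75735576 to 75817382, plus strand) encodes the receptor of stem cell factor and marks the LSK gate. Its level was 201, 529 and 636 CPM in yHSCs, 120, 101 and 173 CPM in Selp_low and 224, 389 and 417 CPM in Selp_high paHSCs. Selp_low paHSCs lay below both other groups without overlap, and the yHSC library with the least Kit was replicate 1, which also held the most neutrophil RNA of its group (67398 CPM). Kit differed by 1.35 on the log2 scale in Selp_high over Selp_low paHSCs (SE 0.36, edgeR adjusted p = 0.338, 0.12 with the block, and 0.109 by DESeq2, 0.00045 with the block) and by -1.68 in Selp_low paHSCs over yHSCs (SE 0.45, edgeR adjusted p = 0.332, DESeq2 adjusted p = 0.0541). In Selp_high paHSCs over yHSCs it was -0.39 (SE 0.44, edgeR adjusted p = 0.988).

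Ly6a (chromosome 15 from 74866726 to 74869880, minus strand) encodes Sca-1, a small lipid-anchored protein. Its level was even in yHSCs, at 148, 162 and 184 CPM, and ran over 380, 194 and 170.0 CPM in Selp_high paHSCs. With the split of the Selp_low libraries given above, the groups overlapped in every comparison. For Ly6a the log2 fold change was -1.11 in Selp_high over Selp_low paHSCs (SE 0.82, edgeR adjusted p = 0.612), 0.59 in Selp_high paHSCs over yHSCs (SE 0.34, adjusted p = 0.833) and 1.78 in Selp_low paHSCs over yHSCs (SE 0.81, adjusted p = 0.472), the last of which was 1.12 without Selp_low replicate 2. Ly6a has close paralogs in the same cluster, and how reads shared between them were counted is not given in the sources used here.

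Cd34 (chromosome 1 from 194621127 to 194643587, plus strand) encodes a sialomucin of progenitor and endothelial cells. Its level was 530.3, 784 and 924 CPM in yHSCs, 168, 21.3 and 45.3 CPM in Selp_low and 87.2, 62.8 and 76.4 CPM in Selp_high paHSCs. Every library of the pre-aged mice thus lay below every yHSC library, and the 3 Selp_high libraries fell inside the range of the Selp_low libraries. In Selp_high paHSCs Cd34 fell 9.86-fold from yHSCs (log2 fold change -3.30, SE 0.29, edgeR adjusted p = 0.0184, DESeq2 adjusted p = 6.96e-24). The edgeR call was kept without yHSC replicate 1 (adjusted p = 0.02) and lost without yHSC replicate 2 (0.0751), yHSC replicate 3 (0.132) or Selp_high replicates 1, 2 and 3 (0.0508, 0.0826 and 0.0889), with log2 fold changes from -3.48 to -3.13. It was also lost at about the same fold in 1 fit of all 9 libraries (-3.28, adjusted p = 0.15). For Selp_low paHSCs over yHSCs the value of Cd34 was -3.15 (SE 0.77, edgeR adjusted p = 0.332, DESeq2 adjusted p = 0.00297), and the DESeq2 call was lost without yHSC replicate 3. It was -4.39 without Selp_low replicate 1, by edgeR. Between the paHSC fractions it was -0.09 (SE 0.68, edgeR adjusted p = 0.970), with a sign that changed under the replicate block.

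Flt3, the receptor that marks multipotent progenitors and is used together with CD34 to narrow the HSC gate, was likewise highest in yHSCs. Its mean was 371 ± 170 CPM in yHSCs (SD, n = 3), 18.3 ± 20.7 CPM in Selp_low and 6.26 ± 1.77 CPM in Selp_high paHSCs. It fell in Selp_high paHSCs (log2 fold change -5.87, SE 0.47, edgeR adjusted p = 0.0159), a call that was kept without yHSC replicate 1 or Selp_high replicate 1 and lost without any 1 of the other 4 libraries (adjusted p from 0.0664 to 0.132). It was 1 of the 3 genes whose pattern over the 9 libraries was most like that of Cd34, beside P2ry14 and Emb. The gate given for the Selp fractions names CD48 and CD150 and not CD34 or Flt3, while the study also shows a gate for lineage-biased subsets that leaves out cells with CD34 or Flt3, and the labels tie neither to the sequenced libraries.

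Procr (chromosome 2 from 155593037 to 155597391, plus strand) encodes EPCR, the endothelial receptor of protein C. Its level was 63.9, 100.4 and 98.0 CPM in yHSCs, 88.1, 15.3 and 27.5 CPM in Selp_low and 239, 145 and 79.8 CPM in Selp_high paHSCs. Of the Selp_low libraries, replicate 1 alone reached the range of the Selp_high libraries, and the groups overlapped in all comparisons. The log2 fold change was 1.78 in Selp_high over Selp_low paHSCs (SE 0.70, edgeR adjusted p = 0.378, 0.12 with the block, and 0.184 by DESeq2, 3.43e-05 with the block), 0.82 in Selp_high paHSCs over yHSCs (SE 0.41, edgeR adjusted p = 0.758) and -0.89 in Selp_low paHSCs over yHSCs (SE 0.62, edgeR adjusted p = 0.681). Selp_low replicate 1 weighed on both values with Selp_low paHSCs, since without it they were 2.83 and -1.93. Without any 1 library they ran from 1.34 to 2.83 and from -1.93 to -0.55.

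Cd9 (chromosome 6 from 125437229 to 125471754, minus strand) encodes a tetraspanin of HSCs and platelets. Its level was 249.9, 101 and 105 CPM in yHSCs, 166, 251 and 717 CPM in Selp_low and 411, 1099 and 560.3 CPM in Selp_high paHSCs. All Selp_high libraries lay above all yHSC libraries, with a log2 fold change of 2.17 (SE 0.53, edgeR adjusted p = 0.259, DESeq2 adjusted p = 0.00939). The DESeq2 call was lost without yHSC replicate 2, yHSC replicate 3 or Selp_high replicate 2. For Cd9 the value was 0.83 in Selp_high over Selp_low paHSCs (SE 0.64, edgeR adjusted p = 0.630) and 1.39 in Selp_low paHSCs over yHSCs (SE 0.65, edgeR adjusted p = 0.486), with overlap in both. These were 1.69 and 0.52 without Selp_low replicate 3, and without any 1 library they ran from 0.32, without Selp_high replicate 2, to 1.69 and from 0.52 to 1.95, without yHSC replicate 1. The value over yHSCs in Selp_high paHSCs was 2.77 without yHSC replicate 1. These 2 libraries had the most Cd9 of their groups and also the most neutrophil RNA, at 204108 CPM in Selp_low replicate 3 and 67398 CPM in yHSC replicate 1, and its part in the Cd9 values was not tested. The summed level of 12 megakaryocyte and platelet markers, which included Pf4 and Ppbp, was 3093, 9095 and 4968 CPM in Selp_high replicates 1 to 3, 573 to 2412 CPM in Selp_low and 578 to 987 CPM in yHSC libraries, so it was highest in the library with the most Cd9, and its part in the result was not tested.

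Cd38 (chromosome 5 from 44025895 to 44069717, plus strand) encodes an enzyme that consumes NAD and is present on adult mouse HSCs. Its level was 9.84, 15.6 and 15.8 CPM in yHSCs and 138, 90.2 and 53.4 CPM in Selp_high paHSCs, beside the split Selp_low values given above. Every library of the pre-aged mice exceeded every yHSC library, although Selp_low replicate 3, at 18.8 CPM, did so narrowly. Cd38 had a log2 fold change of 2.77 in Selp_high paHSCs over yHSCs (SE 0.41, edgeR adjusted p = 0.0776, DESeq2 adjusted p = 5.37e-08) and 3.02 in Selp_low paHSCs over yHSCs (SE 0.75, edgeR adjusted p = 0.332, DESeq2 adjusted p = 0.00639). The DESeq2 call in Selp_high paHSCs held without any 1 library, and that in Selp_low paHSCs was lost without yHSC replicate 2, yHSC replicate 3 or Selp_low replicate 2. Between the fractions it was -0.17 (SE 0.72, edgeR adjusted p = 0.944), with a sign that changed under the replicate block.

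Esam (chromosome 9 from 37439374 to 37449615, plus strand) encodes a junction protein of endothelial cells, platelets and HSCs. Its level was 77.3, 95.3 and 116 CPM in yHSCs, 101, 44.4 and 91.0 CPM in Selp_low and 349, 355 and 208 CPM in Selp_high paHSCs. Selp_high paHSCs lay above both other groups without overlap, and the other groups overlapped. Esam had a log2 fold change of 1.91 over Selp_low paHSCs (SE 0.39, edgeR adjusted p = 0.338, DESeq2 adjusted p = 0.0169) and 1.66 over yHSCs (SE 0.30, edgeR adjusted p = 0.120, DESeq2 adjusted p = 0.000132). The DESeq2 call over yHSCs held without any 1 library, and that over Selp_low paHSCs was lost without Selp_low replicate 2 or Selp_high replicate 1. For Selp_low paHSCs over yHSCs Esam had a value of -0.19 (SE 0.34, edgeR adjusted p = 0.952), with a sign that changed without Selp_low replicate 2. The summed megakaryocyte and platelet markers given for Cd9 were likewise higher in every Selp_high library than in the other 6, and their part in the Esam values was not tested. The summed level of 11 endothelial markers was 312 to 592 CPM in Selp_high, 125 to 201 CPM in Selp_low and 180.2 to 415 CPM in yHSC libraries, with none of the 11 at 0 in any library. Tie1, an endothelial receptor gene of this list named after its values were seen, averaged 181 ± 11.5 CPM in Selp_high and 37.6 ± 16.8 CPM in Selp_low paHSCs (SD, n = 3), with a log2 fold change of 2.23 (SE 0.37, edgeR adjusted p = 0.338, DESeq2 adjusted p = 0.00211). Of the 11, 10 were positive and 1 negative in this comparison, and DESeq2 called Tie1 alone. The negative one was Flt1 (-1.68). Cdh5 averaged 0.895 CPM in Selp_high and 0.739 CPM in Selp_low paHSCs (log2 fold change 0.23). The part of endothelial RNA in the Esam values was not tested.

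Fgd5 (chromosome 6 from 91955859 to 92052985, plus strand) encodes an exchange factor of the GTPase CDC42, and a reporter in this gene labels HSCs. Its level was 5.95, 35.3 and 28.0 CPM in yHSCs, 8.54, 4.93 and 7.72 CPM in Selp_low and 20.4, 39.9 and 23.1 CPM in Selp_high paHSCs. Selp_low paHSCs and yHSC replicate 1 were low and the other 5 libraries high. The summed neutrophil markers were 67398 CPM in yHSC replicate 1 against 14244 and 18910 CPM in yHSC replicates 2 and 3, and their part in the Fgd5 values was not tested. The log2 fold change was 1.94 in Selp_high over Selp_low paHSCs (SE 0.40, edgeR adjusted p = 0.338, DESeq2 adjusted p = 0.0128), and the DESeq2 call held without any 1 library but Selp_low replicate 2. It was -1.58 in Selp_low paHSCs over yHSCs (SE 0.61, edgeR adjusted p = 0.406) and 0.29 in Selp_high paHSCs over yHSCs (SE 0.61, edgeR adjusted p = 0.999), where it turned to -0.16 without yHSC replicate 1 and to -0.08 without Selp_high replicate 2.

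The 10 markers were then counted in each comparison. A gene was called where its adjusted p over all genes tested was 0.05 or less and its level changed by at least 1 on the log2 scale in either direction, and all 10 markers passed edgeR's filter on low counts in each comparison. In Selp_high over Selp_low paHSCs edgeR called 0 of 10 markers and 0 of 20370 genes (0%), with 6 markers and 12.5% of genes at an unadjusted p under 0.05. With DESeq2, which the study used, the calls were Esam and Fgd5 (higher) and Cd48 (lower), 3 of 10 against 2.28% of all genes. A DESeq2 share of all genes is over those given an adjusted p, 25807 in this fit, and their number differed between fits. A block for the replicate number was an alternative, since residuals of same-numbered libraries correlated positively in these fractions, which does not establish that they are pairs. With it edgeR called 0 markers and 9 genes, and DESeq2 called 6 markers (Slamf1, Kit, Procr, Esam and Fgd5 higher and Cd48 lower) against 9.45% of all genes. The DESeq2 count was 0 without Selp_low replicate 2, against 0.434% of all genes, and 6 without Selp_low replicate 3, against 5.29%. Without Selp_high replicate 2 it was 3, against 8.48%, so the share of all genes called did not always move with the count of markers. Slamf1, Kit, Esam and Fgd5 did not overlap between the fractions, 4 of 10 against 21% of genes tested. The median log2 fold change of the markers was 1.08, against -0.11 over all genes tested.

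In Selp_high paHSCs over yHSCs edgeR called Slamf1 higher and Cd34 lower, 2 of 10 against 0.165% of genes tested. DESeq2 called these and Cd9, Cd38 and Esam, which were higher, 5 of 10 against 2.78%. The edgeR count was 1 without yHSC replicate 1, where Cd34 was the marker kept, against 0.114% of genes tested, and 0 without any 1 of the other 5 libraries. In these 5 fits the share of genes tested that were called was 0.157% without Selp_high replicate 1 and 0% in the rest. DESeq2 called 4 or 5 markers without any 1 library, against 1.71% to 4.75% of all genes. The same 5 markers did not overlap between these groups, against 14.1% of genes tested. The markers' median log2 fold change was 0.71, against -0.03 over all genes tested.

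In Selp_low paHSCs over yHSCs edgeR called 0 of 10 markers and 0 of 20437 genes (0%), with 6 markers and 11.3% of genes at an unadjusted p under 0.05. The edgeR count was 2, Cd38 and Ly6a, without Selp_low replicate 3, against 0.534% of genes tested, and 0 without any 1 of the other 5 libraries, against 0% each. DESeq2 called Slamf1, Cd38 and Cd48 higher and Cd34 lower, 4 of 10 against 2.95% of all genes, and between 1 and 6 markers without any 1 library. The count was lowest without yHSC replicate 2, where Cd34 alone was called against 0.949% of all genes, and without yHSC replicate 3, where Slamf1 alone was called against 0.627%. It was 6 without yHSC replicate 1 (9.01% of all genes) and without Selp_low replicate 3 (8.96%). Slamf1, Kit, Cd34 and Cd38 did not overlap between these groups, 4 of 10 against 16.7% of genes tested. The markers' median log2 fold change was 0.60, against 0.08 over all genes tested. The comparisons share libraries pairwise, so the values of a marker in them are not independent.

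**Figure D4:**
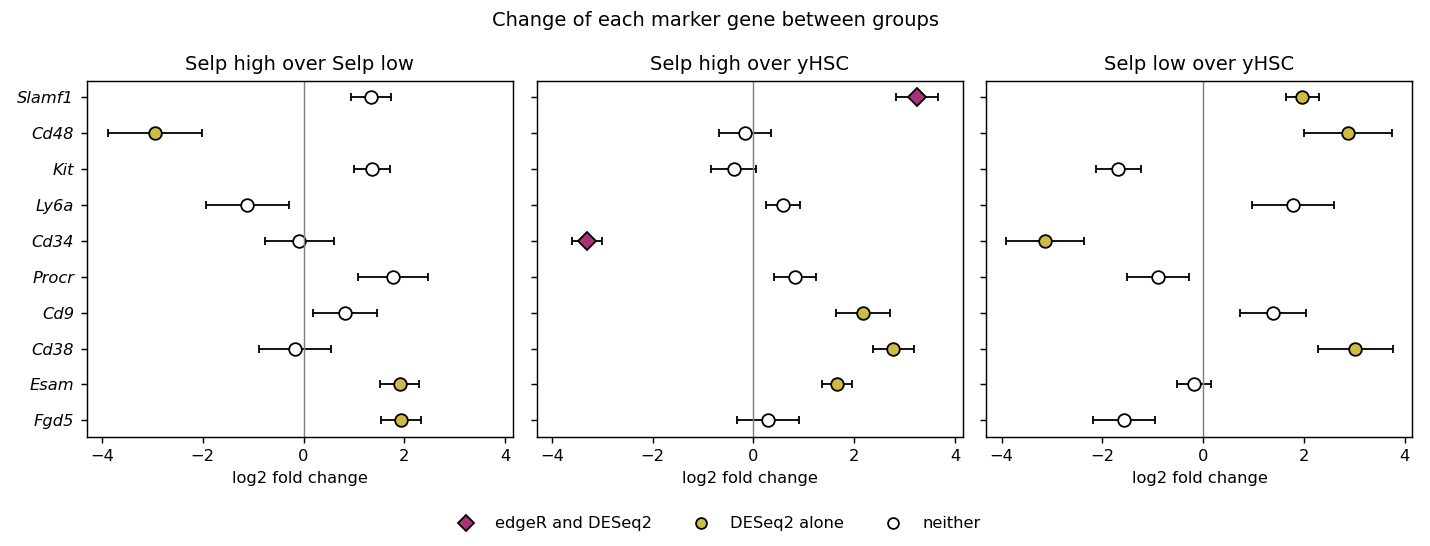
Log2 fold change (horizontal axis) with its SE of each of the 10 markers in the 3 comparisons, by edgeR. Diamonds mark genes called by edgeR and DESeq2 (Slamf1 and Cd34 in Selp high over yHSC), yellow circles those called by DESeq2 alone, and open circles those called by neither. In both comparisons with Selp low the widest errors belong to Cd48 and Ly6a.

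Other genes used to mark or report HSCs were compared as a list of 24. In Selp_high over Selp_low paHSCs 21 had a positive and 3 a negative log2 fold change, with a median of 1.51, and edgeR called 0 and DESeq2 4, all higher. Robo4, a guidance receptor of HSCs and endothelium, had the largest value at 2.40 (SE 0.50, edgeR adjusted p = 0.338, DESeq2 adjusted p = 0.00682). In Selp_high paHSCs over yHSCs 18 were positive, with a median of 0.83, and edgeR called 1, Vwf, which encodes von Willebrand factor and marks platelet-biased HSCs (log2 fold change 3.99, SE 0.49, adjusted p = 0.0401, a call kept without Selp_high replicate 1 and lost without any 1 of the other 5 libraries), while DESeq2 called 8 higher and 1 lower. In Selp_low paHSCs over yHSCs 12 were positive and 12 negative, with a median of -0.03, and edgeR called 0 and DESeq2 2 in each direction.

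The SLAM family receptors, CD48 ligands and adaptors numbered 12 tested genes, Slamf1 and Cd48 included. In Selp_low paHSCs over yHSCs 10 were positive, with a median of 2.42, and DESeq2 called 6 higher and edgeR 0. Cd2, which encodes a ligand of CD48 on lymphocytes, was at 218, 329 and 0.109 CPM in Selp_low replicates 1 to 3, the same split as Cd48. In Selp_high over Selp_low paHSCs the median was -1.99, with 9 negative, 3 of them called by DESeq2 and 0 by edgeR. Cd244a, which encodes another ligand of CD48, averaged 17.8 ± 6.53 CPM in yHSCs and 2.01 ± 1.89 CPM in Selp_high paHSCs (SD, n = 3), with a log2 fold change of -3.14 (SE 0.93, edgeR adjusted p = 0.383, DESeq2 adjusted p = 0.00956).

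The ligand and signalling partners of KIT, a list of 18 genes, held none called by edgeR or DESeq2 in any comparison, and their medians were 0.27, 0.03 and -0.09 in the order of comparisons above. Kitl, the ligand itself, averaged at most 2.17 CPM in any group. Of 30 partners and paralogs of the other markers, Jam2, which encodes a junction protein related to ESAM, was the 1 called by edgeR in Selp_high paHSCs over yHSCs. Its mean was 6.99 ± 0.212 CPM in yHSCs, 15.3 ± 7.78 CPM in Selp_low and 73.8 ± 22.6 CPM in Selp_high paHSCs (SD, n = 3), and it rose by 3.40 on the log2 scale (SE 0.31, edgeR adjusted p = 0.0191). This call too was kept without Selp_high replicate 1 alone, with adjusted p from 0.0509 to 0.177 without any 1 of the other 5 libraries. The medians of this list were -0.16, 0.33 and 0.56 in the same order. In Selp_high over Selp_low paHSCs DESeq2 called 4 of its genes higher and 4 lower. Ly6d, a paralog of Ly6a that marks early B cells, was among the lower ones at -4.64 (SE 1.62, edgeR adjusted p = 0.350, DESeq2 adjusted p = 0.00667), and its level was 1078, 1609 and 5.18 CPM in Selp_low replicates 1 to 3.

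The lists of other cell types had the following values. Of the 11 megakaryocyte and platelet markers tested, some of which are also in the list of HSC genes, 11 were positive in Selp_high over Selp_low paHSCs (median log2 fold change 2.29) and 11 in Selp_high paHSCs over yHSCs (4.69), and DESeq2 called 5 and 10 of them and edgeR 0. All 10 B-lineage markers were negative in Selp_high over Selp_low paHSCs (-3.43, with 4 called by DESeq2), as were 7 of 8 T and NK markers tested (-4.17, with 5 called by DESeq2) and all 6 genes of the lineage antibodies (-1.40, with 0 called by either tool). The medians of the same comparison were -1.85 for 12 neutrophil, -0.50 for 10 erythroid, -0.77 for 15 progenitor, 1.62 for 9 monocyte and macrophage and 1.47 for 11 endothelial markers, with 0, 1, 2, 1 and 1 genes called by DESeq2 and 0 by edgeR. Their part in the values of the 10 markers was not tested.

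The genes most like each marker over the 9 libraries were found by Pearson correlation of log2 CPM among 9409 protein-coding genes with a mean of at least 10 CPM. They are a description over 9 libraries that share their groups and depth, with no test. For Slamf1 these were Klrb1c (r = 0.979), Rdh10 (0.962) and Crebl2 (0.943), and Klrb1c, an NK cell receptor gene, ran from 2.99 to 3.85 CPM in yHSCs, from 9.16 to 25.5 CPM in Selp_low and from 38.4 to 103 CPM in Selp_high paHSCs. For Cd34 they were P2ry14 (0.970), Emb (0.960) and Flt3 (0.951), and P2ry14, a receptor for sugar nucleotides, averaged 63.5 ± 6.82 CPM in yHSCs, 10.02 ± 9.12 CPM in Selp_low and 8.87 ± 0.891 CPM in Selp_high paHSCs (SD, n = 3). The nearest gene was Dmxl1 for Cd48 (0.996), Iqgap2 for Kit (0.979), Pkp3 for Ly6a (0.986), Spo11 for Procr (0.973), Epor for Cd9 (0.948), B3gnt8 for Cd38 (0.950), Hacd4 for Esam (0.985) and Bcam for Fgd5 (0.982). Among the markers themselves the closest pairs by the same measure were Kit with Fgd5 (0.878), Slamf1 with Cd38 (0.865) and Procr with Esam (0.820), while Cd34 ran opposite to Cd9 (-0.714) and Slamf1 (-0.712).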

How the data were processed

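RNA-seq was analysed from 9 libraries of sorted mouse HSCs, 3 each of yHSCs, Selp_low paHSCs and Selp_high paHSCs. The cDNA was made from low amounts of total RNA (SMARTer chemistry), and reads were trimmed with fastp by the authors. The submitters' processing notes name CASAVA 1.8, HISAT2 2.2.1, featureCounts 2.0.6, DESeq2 1.42.0 and build mm39, whose positions are given for genes. The values the authors deposited are raw counts of reads on each gene, whole numbers that were not normalized, together with gene lengths, and 0 columns of per-sample values were left unused. How reads were assigned by strand or between near-identical genes is not given in the sources used here. Genes that overlap a marker held at most 2.34% of its counts. No library held fewer than 77 counts of a marker.

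CPM used TMM factors over all 9 libraries, and FPKM the deposited gene length. Each pair of groups was fitted alone in R 4.3.3 with edgeR 4.0.16 (TMM, filterByExpr, quasi-likelihood test with the legacy setting), with Benjamini-Hochberg adjustment over all genes tested. The SE of a log2 fold change was calculated as its absolute value divided by the square root of that test's F statistic. DESeq2 1.42.0 on all genes, RLE factors, no filter on low counts, 1 fit of all libraries, limma 3.58.1 voom with quality weights, a replicate block and each library left out in turn were alternatives. Added after the data were seen were DESeq2 with a block or with a library left out, edgeR fits of the named list genes without each library, and a fit without the 3 libraries whose 10 top genes exceeded 10% of counts. Figures were drawn with Python 3.11.15 and matplotlib 3.10.9. The steps were tested on simulated counts.

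Residuals of libraries with the same number correlated at 0.199, 0.320 and 0.325 between the paHSC fractions, all above the 0.1 taken as pairing, and at -0.408 to 0.0874 with yHSCs, where numbers were not taken as pairs. Larger correlations of negative sign thus occurred with yHSCs, so this measure cannot establish that the numbers mark pairs. The pairing comes from the data and the shared numbers of the labels, which do not say what a number marks.

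The markers and gene lists were chosen with earlier results of these data known. Genes named are the 10 markers, Selp, at most the 3 genes with the largest change per list and comparison, and the 3 genes most like each marker. Tie1, the 1 endothelial marker called by DESeq2 between the paHSC fractions, and Cdh5 were named after their values were seen.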

Additional observations from a re-analysis of the deposited data

How the results depend on the processing

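Of 10 markers, the number called by edgeR rose from 0 to 3 by DESeq2 and to 1 without the filter on low counts in Selp_high over Selp_low paHSCs. In Selp_high paHSCs over yHSCs it moved from 2 to 5 by DESeq2, without the filter and by voom. It was 1 in the fit of all 9 libraries (Slamf1, with Cd34 lost, against 0.0841% of all genes). Without libraries dominated by 10 genes it was also 1 (Cd34, with Slamf1 lost, against 0.114%). With a replicate block it was 0, against 0% of all genes, and it lay between 0 and 1 without any 1 library. In Selp_low paHSCs over yHSCs it moved from 0 to 4 by DESeq2 and without the filter, to 2 by voom, to between 0 and 2 without any 1 library, and to 7 without the dominated libraries (10.8% of all genes called, against 0%), where Selp_low replicate 1 alone stood for its group and was assumed to vary like the yHSC libraries. The cause was not tested. Without the filter the share of all genes called was 0.443%, 1.14% and 0.836% in the order of comparisons above, and by voom it was 1.37% and 2.11% in the latter 2. The number called by DESeq2 in Selp_high over Selp_low paHSCs moved from 3 to 6 with the replicate block and ranged from 0 to 6 without any 1 library, and in Selp_low paHSCs over yHSCs it ranged from 1 to 6. RLE factors changed no number of markers called.

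Without the dominated libraries Procr moved to 0.81 in Selp_high over Selp_low and to -0.039 in Selp_low paHSCs over yHSCs, and Cd9 to 2.05 in the former. Cd34 moved to -1.16 in the former and to -2.21 in the latter. Directions changed for markers whose log2 fold change lay between -0.19 and 0.29, and for 1 difference of the ratio. In Selp_high over Selp_low paHSCs Cd34 turned to 0.43 and Cd38 to 0.20 with the replicate block by edgeR (0.42 and 0.20 by DESeq2 with the block), Cd34 turned to 0.064 by voom, and without any 1 library Cd34 ranged from -0.53 to 1.15 (positive without Selp_low replicate 1 or Selp_high replicate 2) and Cd38 from -0.65 to 0.22 (positive without Selp_low replicate 1, Selp_low replicate 2 or Selp_high replicate 3). In Selp_high paHSCs over yHSCs Fgd5 turned to -0.024 by voom and to -0.16 without the dominated libraries, and without any 1 library Fgd5 ranged from -0.16 to 0.72 and Cd48 from -0.87 to 0.13. In Selp_low paHSCs over yHSCs Esam turned to 0.065 without the dominated libraries and ranged from -0.41 to 0.050 without any 1 library, and the difference of the Slamf1 to Cd48 ratio from -1.18 to 0.40. Replicate numbers were not taken as pairs with yHSCs, where the block left 0 markers and 0% of all genes called by edgeR.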
